A study of Mus musculus with 2 samples.

Results

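Among CD8+ T cells kept for 20 h in 1 mM glucose, 258 cells at the upper end of a continuous range of Ddit3 are called Ddit3-high cells here. Ddit3 is the transcript of the stress transcription factor CHOP. The 258 cells were selected on their Ddit3 level: at least 5 Ddit3 unique molecular identifiers (UMIs, each counting 1 captured transcript) per 10000 UMIs of the cell. The rule took cells with at least 5000 UMIs, at least 500 genes and under 10% of UMIs from mitochondrially encoded genes. They make up 258 of the 1748 glucose-restricted cells of that depth, of 2546 glucose-restricted cells kept and of 5673 cells kept in the series. They were compared with the 339 glucose-restricted cells of at least 5000 UMIs in which no Ddit3 UMI was found, called Ddit3-0 cells, and Ddit3 was left out of every total and ratio. The remaining 1151 cells of that depth had Ddit3 above 0 and under the limit.

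All cells came from spleens and lymph nodes of 8- to 12-week-old OT-I mice, whose transgenic T cell receptor recognises the ovalbumin peptide SIINFEKL. They were activated with the peptide and 100 U/ml of interleukin-2 over 48 h, per the labels' protocols, and then spent 20 h under transient glucose restriction (TGR, 1 mM glucose) or in control medium (11 mM glucose). The sample descriptions give a longer culture of 3 days before the exposure. Each condition is 1 library from a 10x Chromium run, with 19702050 UMIs in the TGR file and 15103830 in the control file, and the number of mice behind a library is not given in the sources used here. The cells of a library are not replicates, so no test was run and no p-value is given. Intervals are 95% intervals and cover counting error only.

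CHOP is a late arm of the integrated stress response. Kinases such as GCN2 and PERK phosphorylate the initiation factor eIF2, general translation slows while the transcription factor ATF4 is translated more, and ATF4 then drives genes of amino acid supply together with Ddit3. CHOP is known for inducing the phosphatase subunit GADD34 (Ppp1r15a) and the pseudokinase TRIB3, which dampen the response, and pro-apoptotic genes such as Bbc3. In T cells the pathway is best known from amino acid and endoplasmic reticulum stress.

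The levels of Ddit3 that chose the cells form one continuous range. Ddit3-high cells held 3 to 18 Ddit3 UMIs with a median of 5, and a median of 6.25 per 10000 UMIs (range 5.00 to 14.6). The limit cuts through a dense stretch of cells, since 158 cells lay at 4 to under 5 per 10000 and 115 at 5 to under 6. The cell nearest above the limit had 5.002 and the cell nearest below it 4.9992 per 10000. Summed over cells, Ddit3 reached 666 CPM (UMIs of the gene per 1000000 UMIs) in Ddit3-high cells and 260 CPM in the cells between. In the control library 0 of 1115 cells of the same depth met the rule (exact binomial interval up to 0.330%), against 14.8% of TGR cells (13.1 to 16.5%). Control cells held Ddit3 at 13.2 CPM, against 276 CPM over all TGR cells of this depth. With every cell thinned to 5000 UMIs, 67.1% of TGR and 7.09% of control cells had a Ddit3 UMI. Free RNA in the droplets was not estimated.

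**Figure D1:**
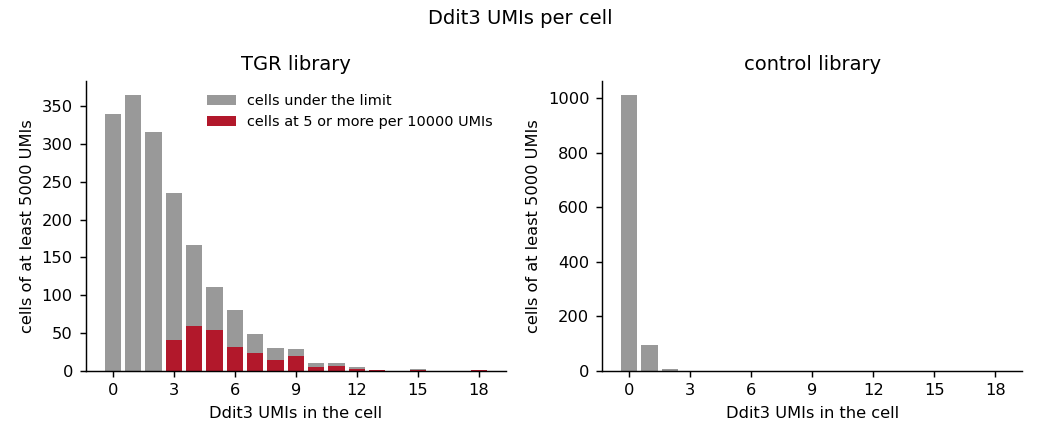
Number of cells (vertical axis) by the number of Ddit3 UMIs in the cell (horizontal axis), for cells of at least 5000 UMIs in the TGR library (left) and the control library (right). Red marks the 258 TGR cells at 5 or more Ddit3 UMIs per 10000; they hold 3 to 18 Ddit3 UMIs, in the upper part of a continuous distribution, and no control cell meets the rule.

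Ddit3 (ENSMUSG00000025408) lies on the plus strand of chromosome 10 from 127290774 to 127296288 (GRCm38). Its last 68 bases overlap Mars, the methionyl-tRNA synthetase gene of the opposite strand. The sources used here do not say whether the counting used strand. Mars was at 20.1 CPM in Ddit3-high and 15.9 CPM in Ddit3-0 cells, far under the Ddit3 level of the selected cells.

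Depth differed between the groups. The median Ddit3-high cell held 7410 UMIs and 1899.5 genes, and the median Ddit3-0 cell 6474 UMIs and 1684 genes. The cells between were deeper than both, at 8645 UMIs and 2085 genes. A cell with more UMIs has more chances to show 1 Ddit3 UMI, so results are also given within bands of depth and with groups redrawn after thinning. The median share of mitochondrially encoded UMIs was 2.47% in Ddit3-high and 2.46% in Ddit3-0 cells, and that of ribosomal protein genes 49.0% and 50.4%. The libraries shared 11 barcodes, of which 2 are Ddit3-high and 3 Ddit3-0 cells.

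The label of CD8 T cell fits both groups. The 8 measured CD8 T cell markers, among them Cd3d, Cd3e and Cd8a, summed to 2837 CPM in Ddit3-high and 2931 CPM in Ddit3-0 cells, and every cell of either group held at least 1 of their UMIs. Markers of most other cells were low in each. B cell markers had 33 and 30 UMIs, NK cell markers 18 and 17, and erythroid markers 0 and 1 in Ddit3-high and Ddit3-0 cells. CD4 or regulatory T cell markers had 34 and 43 UMIs. Stromal or endothelial markers had 55 and 73, of which Pecam1 made 55 and 72. Of 11 myeloid or dendritic markers, 8 were at 0 in Ddit3-high and 6 in Ddit3-0 cells, Lyz2 and Csf1r in both, with sums of 68.1 and 82.9 CPM, of which Cst3 made 62.2 and 64.5. MHC class II transcripts were at 34.8 CPM in 14.7% of Ddit3-high cells and 63.2 CPM in 23.6% of Ddit3-0 cells. Their part in the results was not tested. An alternative left out cells with 2 or more UMIs summed over the B cell, myeloid, erythroid, stromal and MHC class II markers. NK cell and CD4 T cell markers were not part of that filter. With the 175 Ddit3-high and 219 Ddit3-0 cells left, 272 genes were higher and 131 lower. Of these, 158 and 81 are among the 282 and 140 genes counted next.

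The comparison asks which other transcripts went with a high Ddit3 level inside the glucose-restricted culture. Of 6276 scored genes (at least 10 CPM over all TGR cells of at least 5000 UMIs), 282 were at least 1.5-fold higher in Ddit3-high than in Ddit3-0 cells with an interval that leaves out a ratio of 1, which is 4.49% of them, and 140 were lower (2.23%). Such an interval leaves out 1 by counting error alone in about 5% of unchanged genes, before the fold limit is applied. "Higher" and "lower" refer to both conditions in what follows. Counts of list members from this comparison are to be read against 4.49% and 2.23%. Under other settings the share of all scored genes differs. Higher genes were 66.8% of those counted. That split depends on scaling: TMM factors gave 210 higher and 201 lower (51.1% higher) and DESeq2 size factors 191 and 223 (46.1%). The median log2 ratio of all scored genes was 0.07.

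The cells between lay between the groups in 255 of the 282 higher genes and 126 of the 140 lower genes. Since these genes were selected for a wide gap between the groups, nothing is read from that. Set against the cells between instead of the Ddit3-0 cells, Ddit3-high cells had 54 genes higher and 102 lower.

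The clearest group was that of G2 and mitosis. Of 44 scored members of the G2/M list, 27 were higher in Ddit3-high cells and 0 lower, with a median log2 ratio of 0.74. The list summed to 4384 CPM in Ddit3-high and 2719 CPM in Ddit3-0 cells, and to 3916 CPM in the cells between. In control cells of at least 5000 UMIs it summed to 7948 CPM, above each of these. Per cell, its median was 38.5 UMIs per 10000 in Ddit3-high and 16.5 in Ddit3-0 cells.

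Genes of the centromere and kinetochore were among the most different. Cenpa, the histone H3 variant of centromeres, was at 159 CPM in Ddit3-high cells (interval 142 to 176), against 54.0 CPM in Ddit3-0 cells (45.1 to 64.2), 2.93-fold higher (2.39 to 3.62). After thinning, 35.3% of Ddit3-high and 17.1% of Ddit3-0 cells had a Cenpa UMI. Cenpf, a kinetochore protein, was at 73.2 and 27.6 CPM (2.63-fold, 1.98 to 3.58), and Cenpe, a kinetochore motor, at 51.7 and 20.9 CPM (2.45-fold, 1.75 to 3.52). The Ddit3-high intervals of these 3 genes lie wholly above the Ddit3-0 intervals.

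Regulators and spindle genes moved with them. Ccnb2, a mitotic cyclin, was at 60.8 CPM in Ddit3-high and 23.03 CPM in Ddit3-0 cells (2.63-fold, 1.91 to 3.68), and Ccna2, the cyclin of S and G2, at 71.8 and 35.6 CPM (2.01-fold). Cdca3, which promotes entry into mitosis, was at 113 and 44.4 CPM (2.54-fold), Cdca8, a subunit of the chromosomal passenger complex, at 102 and 46.1 CPM (2.22-fold), and the spindle protein gene Nusap1 at 111 and 52.3 CPM (2.11-fold). The spindle genes Ckap2l (2.53-fold) and Kif11 (2.46-fold) completed the part of the 12 highest ratios that belongs to mitosis. Aurka, a mitotic kinase, and Cdc20, an activator of the anaphase-promoting complex, had larger ratios at low levels, with 38 and 10 UMIs (3.99-fold, 2.03 to 9.34) and 52 and 17 UMIs (3.27-fold, 1.90 to 6.16). Members of high abundance differed less: Hmgb2 was at 789 and 578 CPM (1.36-fold) and the condensin gene Smc4 at 458 and 319 CPM (1.44-fold).

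**Figure D2:**
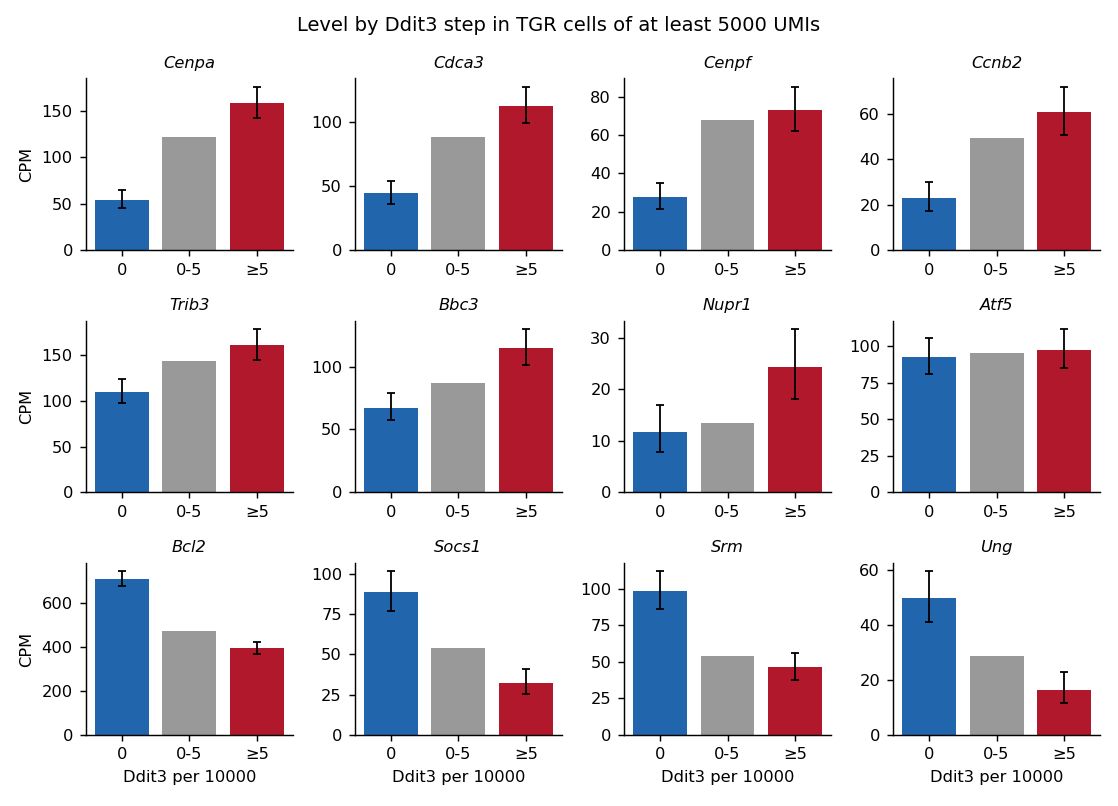
Summed level in CPM (vertical axis of each panel, from 0) of 12 genes in TGR cells of at least 5000 UMIs with 0, above 0 and under 5, and 5 or more Ddit3 UMIs per 10000 (left to right); error bars are exact Poisson intervals of the outer groups. The 4 mitotic genes of the top row stand lowest in the Ddit3-0 cells, Atf5 is level, and the 4 genes of the bottom row stand highest in the Ddit3-0 cells.

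Phase calls were made after thinning from the S phase list and this same G2/M list, so they restate its difference per cell and add no separate evidence. G2/M calls took 41.9% of Ddit3-high cells (interval 35.8 to 48.1%) and 15.9% of Ddit3-0 cells (12.2 to 20.3%), with 37.4% in the cells between (34.6 to 40.3%). S calls took 24.8% and 41.9%, and G1 calls 33.3% and 42.2%, in Ddit3-high and Ddit3-0 cells. At matched depth, 5000 to under 7000 UMIs, G2/M calls took 26.1% of 111 Ddit3-high and 11.9% of 210 Ddit3-0 cells, while G1 calls were close at 44.1% and 45.7%. With groups redrawn after thinning, as 3 or more Ddit3 UMIs against 0, the shares were 44.7% of 313 and 27.1% of 575 cells. These calls rest on scores relative to the other cells and are no measure of how many cells divide.

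**Figure D3:**
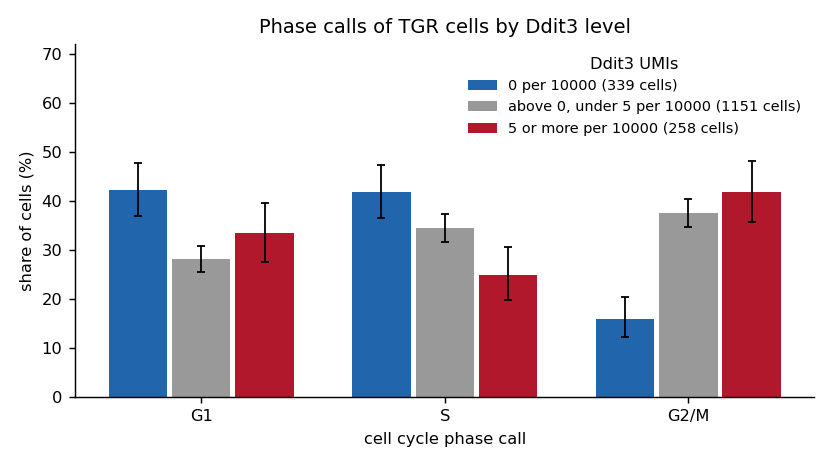
Share of cells (vertical axis, %) called G1, S or G2/M (horizontal axis) among TGR cells with 0, above 0 and under 5, and 5 or more Ddit3 UMIs per 10000; bars carry exact binomial intervals. The G2/M share is 15.9% in Ddit3-0 cells, 37.4% in the cells between and 41.9% in Ddit3-high cells.

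Seen from the phases, Ddit3 was present in all of them. It was at 257 CPM in cells called G1, 253 CPM in S and 308 CPM in G2/M. The rule was met by 15.6% of G1 cells, 10.6% of S cells and 18.2% of G2/M cells, and no Ddit3 UMI was found in 25.9%, 23.6% and 9.11% of them. The phases differed in depth, with medians of 6782 UMIs in G1, 7442.5 in S and 9505 in G2/M. After thinning to 5000 UMIs, cells without a Ddit3 UMI were 37.1% of G1, 35.5% of S and 26.3% of G2/M.

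Fewer members of the G2/M list were higher within phases, where the groups of cells were also smaller. Within cells called G2/M, 1 of 44 members was higher (median 0.03), against 1.94% of all scored genes. Within G1 4 were higher, against 3.15% of scored genes. Within S 13 were higher, against 3.51%, so the list still differed there. Against the cells between, 1 was higher (median 0.16), where 0.860% of scored genes were. Its count was 20 in cells of 5000 to under 7000 UMIs, 20 at 7000 to under 10000 and 11 at 10000 or more, where 61 Ddit3-high and 28 Ddit3-0 cells remained. With groups redrawn after thinning it was 17. Of all scored genes, 4.32%, 4.08%, 3.01% and 3.11% were higher in these settings, in the same order. Since the phase calls use this same list, the within-phase counts are not independent of it.

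In the S phase list, 4 of 42 members were higher, among them E2f8 and Rrm2, and 3 were lower (Ung, Exo1 and Cdca7). Its median was 0.19, with 29 of 42 members above 0, and it summed to 2119 CPM in Ddit3-high and 1914 CPM in Ddit3-0 cells. Ung, the uracil-DNA glycosylase that removes uracil from DNA, had the lowest ratio of all named genes, at 16.5 CPM in Ddit3-high and 49.8 CPM in Ddit3-0 cells, 3.00-fold lower (2.07 to 4.53). Exo1, an exonuclease of mismatch repair, had 16 and 39 UMIs.

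Promoter sequence was read for genes of these groups, because mitotic genes are known to share a promoter element, the cell cycle homology region. Its core TTTGAA was searched on both strands, from 250 bases before to 50 bases after each gene's start, in RefSeq sequence (GRCm38.p6). The core lay in 19 of the 24 higher G2/M members with a window (79.2%) and in 27 of the 39 scored members with one (69.2%), against 18.1% of all 27025 genes with a window and 12.0% of scored genes. CCAAT, a box that often accompanies it, lay in 19 of the 24 (79.2%), against 37.9% of all. The stretch is shown for 4 higher members, from 130 bases before the start to 30 after, with the core in capitals: Ccnb2 (chr9:70421525-70421684, minus strand), Cenpf (chr1:189688057-189688216, minus strand), Cenpa (chr5:30666756-30666915, plus strand) and Cdca8 (chr4:124936888-124937047, minus strand).
Ccnb2 promoter: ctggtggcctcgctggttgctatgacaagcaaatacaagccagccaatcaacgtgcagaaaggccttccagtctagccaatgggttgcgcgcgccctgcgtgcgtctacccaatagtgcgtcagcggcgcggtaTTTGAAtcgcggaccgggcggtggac
Cenpf promoter: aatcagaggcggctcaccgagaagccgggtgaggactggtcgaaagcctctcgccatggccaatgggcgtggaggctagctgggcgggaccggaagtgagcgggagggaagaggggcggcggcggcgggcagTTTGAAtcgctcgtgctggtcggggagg
Cenpa promoter: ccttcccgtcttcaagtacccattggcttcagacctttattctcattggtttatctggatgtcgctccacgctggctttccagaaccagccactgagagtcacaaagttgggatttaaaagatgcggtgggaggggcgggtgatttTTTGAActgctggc
Cdca8 promoter: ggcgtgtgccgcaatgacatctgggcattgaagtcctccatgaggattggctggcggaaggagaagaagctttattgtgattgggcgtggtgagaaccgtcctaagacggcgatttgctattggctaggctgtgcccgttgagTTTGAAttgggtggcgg
In each the core begins just after the start, at 4, 2, 16 and 13 bases past it in the order shown, and the Ccnb2 stretch holds 3 CCAAT boxes before it. A match is a description of the letters and not of binding.

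The integrated stress response itself differed less than the mitotic genes. Of its 6 scored transcription factors besides Ddit3, 1 was higher and 0 lower, with a median of 0.24. Atf4 was at 351 CPM in Ddit3-high cells (326 to 376), against 268 CPM in Ddit3-0 cells (247 to 289), a ratio of 1.31 (1.18 to 1.46) that is under the fold limit, with 113 CPM in control cells. Atf5, a factor that CHOP and ATF4 are known to induce, was at 97.9 and 93.0 CPM, a ratio of 1.05 (0.87 to 1.28), against 5.00 CPM in control cells. Cebpg, a dimer partner of ATF4, was at 106 and 80.0 CPM (1.32, 1.09 to 1.61). Nupr1, a stress-induced chromatin protein gene, was the higher member, at 24.2 and 11.7 CPM (2.05-fold, 1.28 to 3.39). Atf3, a repressor induced by ATF4, was too low to be scored and had 13 UMIs in Ddit3-high and 3 in Ddit3-0 cells, 4.18-fold (interval 1.30 to 25.9). Cebpb had 5 and 4 UMIs.

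Feedback genes and death effectors lay higher in Ddit3-high cells for 2 of 9 scored members and lower for 0 (median 0.34). Bbc3, which encodes the pro-apoptotic BH3-only protein PUMA, was at 115 CPM in Ddit3-high cells (101 to 130), against 67.4 CPM in Ddit3-0 cells (57.4 to 78.7), 1.70-fold higher (1.39 to 2.09), and at 16.7 CPM in control cells. Ppp1r15a, the phosphatase subunit that reverses eIF2 phosphorylation, was at 20.6 and 9.63 CPM (2.11-fold, 1.27 to 3.70). Trib3 was at 161 and 110 CPM, a ratio of 1.46 (1.24 to 1.72) just under the limit, and 51.9% and 38.3% of cells had a UMI of it after thinning. Chac1, a glutathione-degrading enzyme induced by ATF4, had 21 and 12 UMIs and was not scored. Against the cells between, 0 of the 9 members were higher, but only 0.860% of all scored genes were, so nothing is read from that.

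The core of the C/EBP-ATF response element, TGATGNAA, was searched in the same way. Of the 24 listed stress transcription factor, feedback and effector genes with a window, 5 held it (Atf3, Chac1, Fgf21, Nupr1 and Trib3), against 4.06% of all windows and 2.07% of those of scored genes. Nupr1 and Trib3 are the 2 among the 13 scored ones. Each is shown over the same stretch, with the match in capitals as it reads on the gene's strand: Nupr1 (chr7:126625441-126625600, minus strand) and Trib3 (chr2:152344031-152344190, minus strand).
Nupr1 promoter: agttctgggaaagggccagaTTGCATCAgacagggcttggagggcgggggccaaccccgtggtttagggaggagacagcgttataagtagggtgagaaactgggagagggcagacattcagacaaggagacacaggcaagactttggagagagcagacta
Trib3 promoter: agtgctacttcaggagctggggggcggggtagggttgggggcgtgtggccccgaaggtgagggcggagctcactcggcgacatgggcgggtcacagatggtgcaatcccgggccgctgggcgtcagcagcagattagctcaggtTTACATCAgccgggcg

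Few enzymes and transporters that ATF4 is known to drive passed the limit. Of 12 serine, asparagine and one-carbon genes, 1 was higher (Got1, aspartate aminotransferase, 28.4 and 16.8 CPM in Ddit3-high and Ddit3-0 cells) and 0 lower. Asns, asparagine synthetase, was at 34.8 and 37.7 CPM, Pck2, mitochondrial PEP carboxykinase, at 58.5 and 51.5 CPM, the serine synthesis gene Phgdh at 244 and 223 CPM, and the mitochondrial folate enzyme gene Mthfd2 at 204 and 170 CPM. Intervals of the ratio held 1 for Asns (0.67 to 1.27), Pck2 (0.88 to 1.47) and Phgdh (0.97 to 1.24), but not for Mthfd2 (1.20, 1.04 to 1.37). Of 7 amino acid transporters 0 passed, with Slc3a2, the heavy chain shared by several of them, at 145 and 110 CPM (1.31, 1.11 to 1.55). Of 20 cytosolic aminoacyl-tRNA synthetases 0 were higher and 1, Farsa, was lower, and Sars was at 177 and 138 CPM (1.28, 1.10 to 1.49).

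Other transcripts of glucose restriction were near level too. Fam129a, a translation-linked stress gene, was at 47.6 and 41.9 CPM, Cox6a2, a muscle-type cytochrome oxidase subunit, at 76.8 and 64.9 CPM, and the host transcript Snhg12 at 487 and 456 CPM in Ddit3-high and Ddit3-0 cells. Their ratios of 1.13, 1.18 and 1.07 have intervals that hold 1. In control cells they were at 7.62, 0.238 and 43.1 CPM.

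Among other stress groups, antioxidant genes had the most higher members, 4 of 18 (Hmox1, Gclc, Cat and Nfe2l2), with 0 lower and a median of 0.29. Hmox1, heme oxygenase, was at 22.9 CPM in Ddit3-high and 5.44 CPM in Ddit3-0 cells (4.08-fold, 2.25 to 8.43), the largest ratio of the scored genes named here, with 50 and 13 UMIs. Gclc, a subunit of the enzyme that opens glutathione synthesis, was at 26.5 and 14.2 CPM (1.85-fold). Sqstm1, the autophagy receptor p62, was at 85.1 and 50.3 CPM (1.69-fold, 1.34 to 2.15) and was the higher 1 of 20 autophagy and lysosome genes. Of 14 p53 targets 3 were higher (Bbc3, Cdkn1a and Phlda3). Cdkn1a, the cell cycle inhibitor p21, was at 81.9 and 51.9 CPM (1.57-fold).

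The list of chaperones of the endoplasmic reticulum and of unfolded protein response genes had 0 higher and 0 lower of 22 (median 0.12). Herpud1, of the degradation pathway of that compartment, was at 63.6 and 44.4 CPM, a ratio of 1.43 (1.10 to 1.86). Mitochondrial chaperones and proteases had 0 of 12 in either direction. Of 10 heat shock genes 1, Hspa4l, was lower.

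FOXO targets and quiescence genes had 3 of 16 higher (Tsc22d3, Pik3ip1 and Ccng2) and 0 lower, with a median of 0.32. Tsc22d3, which encodes the glucocorticoid-induced leucine zipper GILZ, was at 60.4 and 33.5 CPM (1.80-fold, 1.35 to 2.41). Outside the lists, Tfdp2, a dimer partner of E2F factors, was at 43.9 and 21.8 CPM (2.01-fold) and Pdzd11 at 40.2 and 19.7 CPM (2.03-fold).

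**Figure D4:**
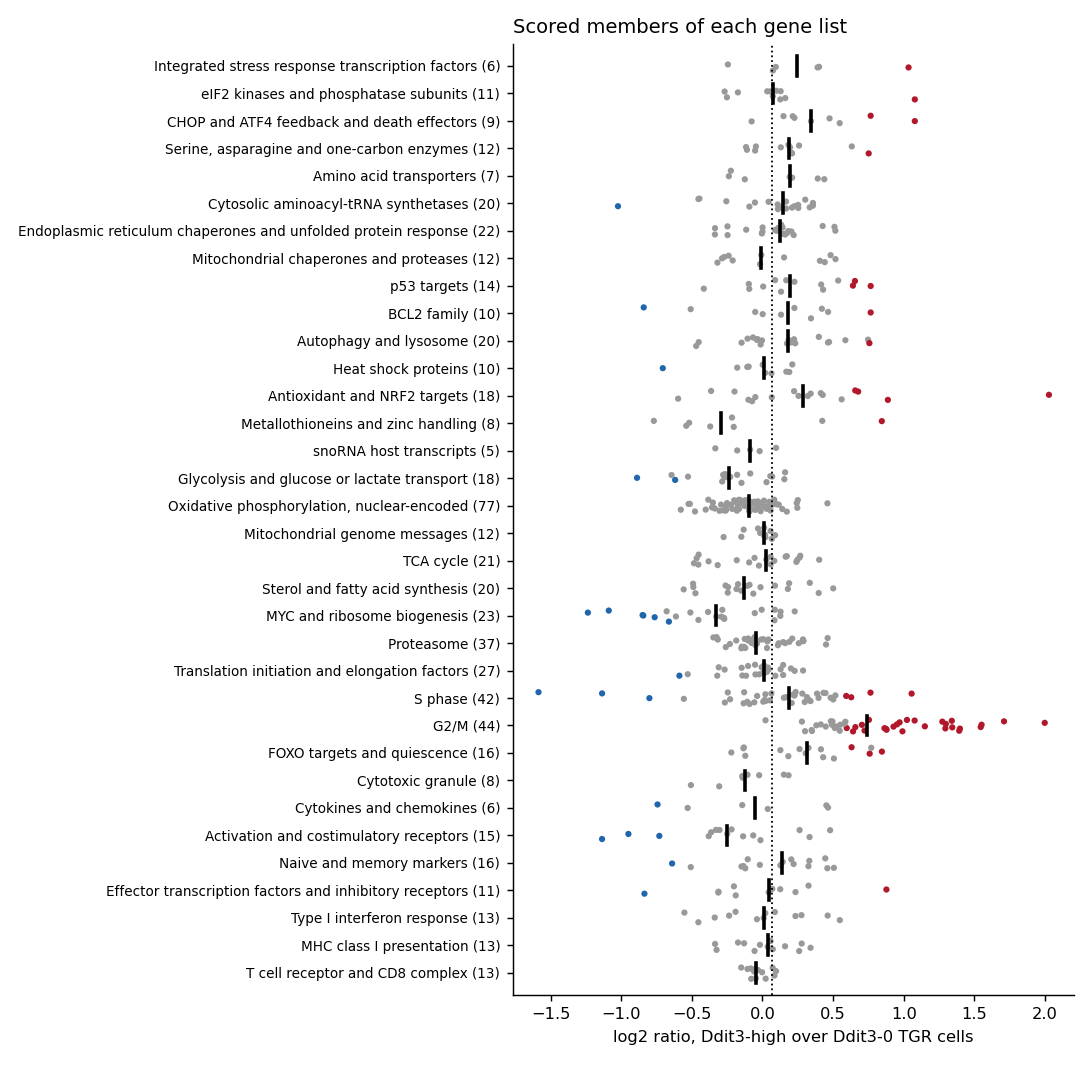
Log2 ratio of Ddit3-high over Ddit3-0 cells (horizontal axis) for each scored member of 34 gene lists (rows, with the number of scored members); black bars are list medians, the dotted line is the median of all scored genes, red points are members counted as higher and blue points as lower. The G2/M list is shifted to the right, with 27 of 44 members red, and the MYC and ribosome biogenesis list to the left, with 6 of 23 blue.

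Genes of survival and cytokine signalling were among those lower. Bcl2, the anti-apoptotic founder of its family, was at 395 CPM in Ddit3-high cells (369 to 422), against 707 CPM in Ddit3-0 cells (674 to 741), 1.79-fold lower (1.65 to 1.95), with 471 CPM in the cells between and 552 CPM in control cells. It was the lower 1 of 10 scored BCL2 family genes, with Bbc3 the higher 1, while Bax was at 300.4 and 274 CPM. Socs1, which inhibits cytokine receptor signalling, was at 32.5 and 88.8 CPM (2.72-fold lower, 2.08 to 3.63), with 54.3 CPM between and 70.6 CPM in control cells. Map3k8, a kinase of inflammatory signalling, was at 29.7 and 62.0 CPM (2.08-fold lower). Zbtb32, a transcriptional repressor in activated lymphocytes, and Irf8, an interferon regulatory factor, were 1.97-fold and 1.78-fold lower.

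Growth genes were lower in part. Of 23 MYC and ribosome biogenesis genes 0 were higher and 6 lower (Nop16, Srm, Myc, Rrp9, Gnl3 and Nolc1), with a median of −0.33. Srm, spermidine synthase, was at 46.2 CPM in Ddit3-high and 98.4 CPM in Ddit3-0 cells (2.13-fold lower, 1.68 to 2.72), and at 54.1 CPM in the cells between. The summed level did not share the direction, at 5474 and 5419 CPM, since the abundant nucleolar gene Npm1 was at 3610 and 3303 CPM. Within S cells 7 members were lower, against 2.58% of all scored genes. Within G1 and G2/M cells 0 were lower, against 1.61% and 1.29%, and against the cells between 0, where 1.63% of scored genes were. With 23 members, a count of 0 is near those shares. Eif5a, the hypusinated translation factor, was at 499 and 750 CPM (a ratio of 0.665, 0.616 to 0.718) and at 493 CPM in the cells between. Also among the lowest ratios were Mphosph10, of ribosomal RNA processing, Polr2l, a subunit shared by RNA polymerases, Alkbh1, a demethylase (70.0 and 127 CPM), Ndufaf4, an assembly factor of respiratory complex I, and Espn, an actin-bundling protein (23.3 and 52.3 CPM).

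Metabolic lists held few genes past the limit, with medians below the 0.07 of all scored genes. Oxidative phosphorylation had a median of −0.09, with 18 of 77 members above 0. It summed to 20881 CPM in Ddit3-high and 22294 CPM in Ddit3-0 cells. Glycolysis had a median of −0.23, with 5 of 18 members above 0. Medians were 0.01 for mitochondrial genome messages, 0.03 for the TCA cycle and −0.13 for sterol and fatty acid synthesis. Of 77 nuclear-encoded oxidative phosphorylation genes, 12 mitochondrial genome messages, 21 TCA cycle genes and 20 sterol and fatty acid synthesis genes, 0 were higher and 0 lower. Glycolysis and glucose or lactate transport had 2 of 18 lower, the hexokinase genes Hk2 (12.3 and 23.03 CPM in Ddit3-high and Ddit3-0 cells) and Hk1. Of 37 proteasome genes 0 passed in either direction.

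Genes of T cell function that passed the limit were mostly lower. Of 8 cytotoxic granule genes 0 passed the limit, although Gzmb, granzyme B, was at 454 CPM in Ddit3-high and 644 CPM in Ddit3-0 cells (1.42-fold lower, 1.31 to 1.54) and at 448 CPM in the cells between. Of 15 activation and costimulatory receptors 3 were lower (Cd200, Slamf1 and Tnfrsf4), of 6 cytokines and chemokines 1 (Lta, lymphotoxin alpha), and of 16 naive and memory markers 1 (Igfbp4). Of 11 effector transcription factors and inhibitory receptors 1 was lower (Irf8) and 1 higher. The higher one, Batf3, an AP-1 family factor, was at 30.2 and 16.3 CPM (1.84-fold higher). Of 13 genes each for interferon response, MHC class I presentation and the T cell receptor complex, 0 were higher and 0 lower. The metallothionein genes Mt1 (432 and 628 CPM) and Mt2 (266 and 343 CPM) were under the fold limit.

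Ratios were also taken within each phase. Of the 282 higher genes, 192 lay above 1 in all 3 phases and 37 were past 1.5-fold in all 3, among them Hmox1, Tfdp2 and Batf3. Of the 27 higher G2/M members 11 and 1 (Kif23) did so. Of the 140 lower genes, 108 lay below 1 in all 3 phases and 17 were past the fold in all 3, among them Socs1, Espn, Exo1 and Farsa. All these genes were chosen on the pooled sums of the same cells, so the counts are a description. They use the ratio without its interval, and the same counts over all scored genes were not taken. Tfdp2 had 12 UMIs in each group in G1 (log2 interval −0.65 to 1.92). In G2/M, Hmox1 had 25 and 4 UMIs (−0.20 to 3.32) and Batf3 19 and 1 (0.28 to 8.31). The log2 ratio of Socs1 was −1.33 in cells called G1, −1.38 in S and −0.997 in G2/M. That of Bcl2 was −0.58, −1.07 and −0.43. Stress genes did not share one order over the phases. Bbc3 had log2 ratios of 1.13 in G1, 0.85 in S and 0.02 in G2/M, and Trib3 1.06, 0.27 and 0.03. Differences between phases were not tested. Sqstm1 (1.11, 0.72 and 0.25) and Tsc22d3 (1.30, 0.62 and 0.25) were also largest in G1, and Atf5 was at 0.63, −0.06 and −0.22. Ppp1r15a (1.17, 0.16 and 2.89) and Herpud1 (0.43, 0.14 and 1.14) had their largest point ratios in G2/M. That of Ppp1r15a rests on 23 and 1 UMIs there (interval 0.59 to 8.58). Hmox1 (1.66, 2.57 and 1.27), Nupr1 (1.07, 1.41 and 0.54) and Cdkn1a (0.34, 0.80 and 0.23) had their largest point ratios in S. There Hmox1 had 14 and 4 UMIs and Nupr1 13 and 9. The intervals of Ppp1r15a, Hmox1 and Nupr1 overlap between the phases, so no order of phases is read from them.

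**Figure D5:**
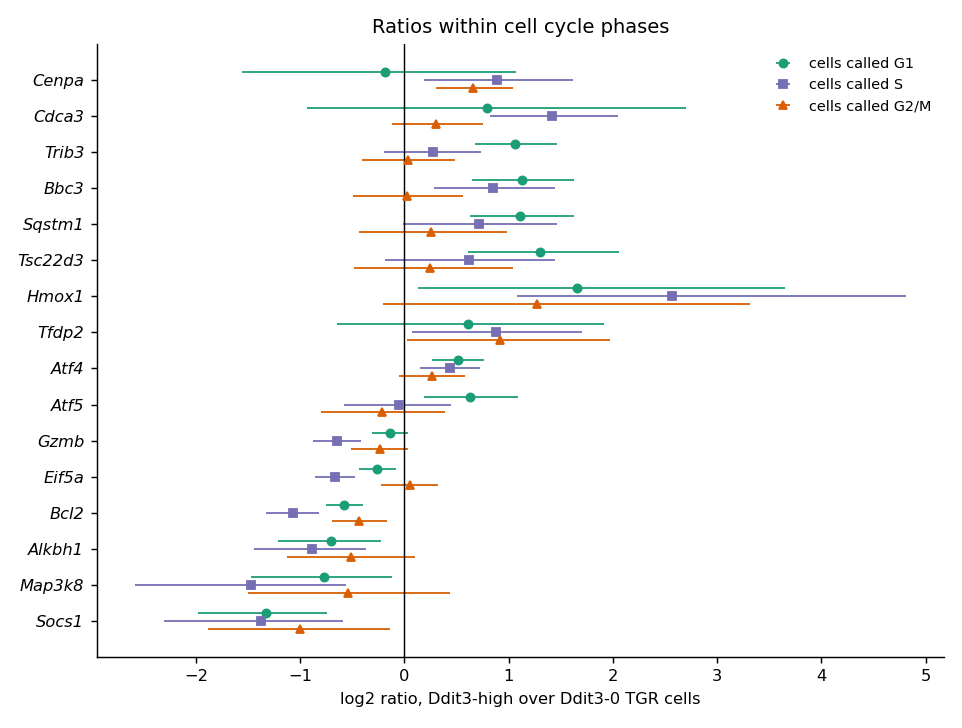
Log2 ratio of Ddit3-high over Ddit3-0 cells (horizontal axis) for 16 genes (rows) within cells called G1, S and G2/M (colours and symbols); bars are 95% counting intervals. Socs1, Map3k8, Alkbh1 and Bcl2 lie below 0 in every phase, and Bbc3 and Trib3 lie above 0 in G1 and near 0 in G2/M.

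Depth was matched most closely where each cell was thinned to 5000 UMIs and the groups were redrawn as 3 or more Ddit3 UMIs (313 cells) against 0 (575 cells), an alternative added after the data were seen. It gave 195 higher and 111 lower genes, of which 98 and 47 were among the 282 and 140 above. Cenpa (log2 ratio 1.23), Nupr1 (0.95), Got1 (0.91), Tsc22d3 (0.78) and Tfdp2 (0.60) were again higher, and Ung (−1.60), Socs1 (−0.85), Srm (−0.75), Map3k8 (−0.70) and Bcl2 (−0.68) again lower. Several stress genes did not pass under it. Bbc3 was at 0.48 (interval 0.18 to 0.78), Ppp1r15a at 0.52 (−0.23 to 1.27), Cdkn1a at 0.19 (−0.18 to 0.57) and Sqstm1 at 0.05 (−0.31 to 0.42). Hmox1 was at 0.86 on 24 UMIs in each group, with an interval that just held a log2 ratio of 0, and Gclc at 0.54 (−0.10 to 1.19).

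Only 14 cells reached 10 or more Ddit3 UMIs per 10000 (0.801% of TGR cells of this depth), with 102998 UMIs in all, so few genes can be read there. Atf4 was at 467 CPM in them with 48 UMIs and Atf5 at 224 CPM with 23 UMIs, against 268 and 93.0 CPM in Ddit3-0 cells. Asns was at 97.2 CPM with 10 UMIs, against 37.7 CPM, and Slc3a2 at 262 CPM with 27 UMIs, against 110 CPM. These 4 genes, chosen here after their values were seen, had ratios of at most 1.31 over all Ddit3-high cells. The log2 ratio of Asns in the 14 cells had an interval of 0.26 to 2.31. Nupr1, Bbc3, Pck2 and Sars were higher there too. For other stress genes the interval held a log2 ratio of 0, among them Trib3 (0.67, −0.11 to 1.36), Cebpg (0.76, −0.13 to 1.55), Mthfd2 (0.51, −0.13 to 1.10) and Phgdh (0.18, −0.45 to 0.75). Of all scored genes, 4.09% were higher in these cells.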

How the data were processed

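The 1 TGR and 1 control library were deposited by the authors as UMI counts per gene and barcode, not normalized, per the file headers and values. Cell Ranger 2.2, Seurat 3 and mm10 are named in the submitters' processing notes, with no role given. Barcodes with at least 500 genes and under 10% mitochondrial UMIs were kept (2546 TGR and 3127 control). UMIs were summed per group of cells without Ddit3 and scaled to CPM. The ratio was computed with 0.5 UMI added per group, scaled by group total, and its 95% interval came from the Clopper-Pearson interval of the split of UMIs. CPM have exact Poisson intervals. Scored genes had at least 10 CPM over all TGR cells of at least 5000 UMIs. Phases were called with scanpy 1.11.5 after thinning to 5000 UMIs. The ratio and its interval were checked on simulated data. Doublets were not called and were left in; an alternative drops the 5% of cells with the most UMIs. Gene positions are from GENCODE by identifier (27645 of 27998 matched).

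Named genes are the 12 highest and 12 lowest ratios at 25 CPM or more, with predicted genes, pseudogenes and receptor segments left out; the 2 largest absolute ratios and 2 highest CPM of each list; and a set of stress genes. Members of a list that a count of 5 or fewer names, the genes past the fold in all 3 phases, and those of the highest Ddit3 level were chosen after their values were seen. The cells and the lists were chosen with earlier results of these data known. Alternatives covered scaling (TMM factors from edgeR 4.0.16; size factors from DESeq2 1.42.0; totals that omit mitochondrial and ribosomal protein genes), the low-value filter, depth, cell weight, phase, the Ddit3 limits and cell filters. Groups redrawn on thinned counts were added after the data were seen. edgeR and DESeq2 gave scaling factors only, since 1 library per condition allows no count test. Some list members are not reported here by name.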

Additional observations from a re-analysis of the deposited data

How the results depend on the processing

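No paired analysis was possible because each condition has 1 library and no result comes from a test. Under 19 alternatives for each count, the number of higher genes stayed within 1.5 times of 282 in 16 and the number of lower genes within 1.5 times of 140 in 14. The exceptions for higher genes were 37 at a minimum of 50 CPM, 122 within G2/M cells and 54 against the cells between. For lower genes they were 223 with DESeq2 size factors, 211 with no filter, 21 at 50 CPM, 81 within G2/M cells and 61 at 10 or more Ddit3 UMIs per 10000. The higher G2/M members numbered 11 at 50 CPM, 11 at 10000 or more UMIs, 4 in G1, 13 in S, 1 in G2/M, 16 at the higher Ddit3 limit, 1 against the cells between and 17 with groups redrawn after thinning. Of all scored genes, 1.95%, 3.01%, 3.15%, 3.51%, 1.94%, 4.09%, 0.860% and 3.11% were higher in the same order. The lower MYC and ribosome biogenesis members numbered 1 at 50 CPM, 2, 3 and 2 in the depth bands from low to high, 0 in G1, 0 in G2/M, 2 at the higher Ddit3 limit and 0 against the cells between. Of all scored genes, 1.11%, 2.23%, 1.61%, 2.53%, 1.61%, 1.29%, 0.972% and 1.63% were lower in the same order. A minimum of 50 CPM leaves 1896 scored genes; other causes were not tested. The share of TGR cells that met the rule was 0.801% at 10 per 10000 and 17.9% at 3 UMIs after thinning.

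Of the log2 ratios of called named genes under alternatives, 675 stayed inside the interval of the reported value, 162 moved outside it without a change of sign and 15 changed sign. In G1 these were Cdc20 (−0.27), Cenpa (−0.19), Ccnb2 (−0.49) and Kif11 (−0.27). In G2/M they were Eif5a (0.049), Lta (1.07), Ndufaf4 (0.51), Mphosph10 (0.21) and Slamf1 (0.25). At the higher Ddit3 limit they were Pdzd11 (−0.017), Hspa4l (0.034), Ndufaf4 (0.36) and Cd200 (0.14). Eif5a was at 0.017 against the cells between and Exo1 at 0.40 at 10000 or more UMIs. Named genes with 0 UMIs in a group under an alternative are left out of these numbers, while the counts of higher and lower genes include such genes. Genes under about 50 UMIs per group have wide intervals, so at this depth a 1.5-fold difference in them was often not detectable.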
